A study of Mus musculus with 6 samples.

Results

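The genes described here encode the nuclear subunits of oxidative phosphorylation. They were taken as every array probe whose symbol begins as those of NADH dehydrogenase (Ndufa, Ndufb, Ndufc, Ndufs or Ndufv followed by a digit, which leaves out Ndufab1, also a complex I subunit), succinate dehydrogenase (Sdha to Sdhd), the cytochrome bc1 complex (Uqcr), cytochrome c oxidase (Cox4 to Cox8) or ATP synthase (Atp5) do. Cyc1, a core subunit of complex III, has a symbol outside this rule. This gave 79 genes with 117 probes, of 30854 symbols and 45281 probes on the array. Of these genes, 34 belong to complex I, 4 to complex II, 7 to complex III, 15 to complex IV and 14 to complex V. The other 5 genes (Cox4nb, Atp5s, Atp5sl, Cox7a2l and Ndufa12l) carry such a symbol without coding for a subunit, and were counted as members but left out of the medians of the complexes.

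RNA was measured in mGLUTag cells, an immortalized mouse line of the enteroendocrine L-cell, the gut cell that secretes glucagon-like peptide-1. All 6 samples came from cultures that had been starved of serum, synchronized with forskolin, which raises cAMP, and returned to growth medium. RNA was taken at 4 h (n = 3) and at 16 h (n = 3), the peak and the trough of the clock gene Arntl (Bmal1) in these cells, and each sample was hybridized to 1 BeadChip array. The line is a single cell type grown without its epithelium, no unsynchronized samples were analysed here, and whether the 3 samples of a time point were separate cultures is not stated, so p-values measure only the spread between these samples.

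Oxidative phosphorylation turns the energy of reduced cofactors into ATP at the inner mitochondrial membrane. Complexes I and II feed electrons from NADH and succinate into ubiquinone, complex III passes them to cytochrome c, complex IV hands them to oxygen, and complex V uses the proton gradient built up on the way to make ATP. Most subunits are encoded in the nucleus, a few in mitochondrial DNA, and in hormone-secreting cells such as the L-cell the ATP made from nutrients is known as one of the signals that couple fuel to secretion.

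The deposited values are background-subtracted intensities on a linear scale, which had not been normalized between arrays. The noise of each array was taken from its values below 0: the limit is the 99th percentile of these with the sign turned, and it was at least 9.2 intensity units on every array. Mean intensity over all probes ranged from 291 to 354 on the 4 h arrays and from 216 to 246 on the 16 h arrays. Changes are therefore given after background correction and quantile normalization, as log2 intensity at 4 h minus 16 h, so that each is relative to the other probes of an array. The label of the cells was checked on 8 L-cell markers. Gcg, Chga, Chgb, Scgn, Neurod1 and Isl1 were above the noise limit on all 6 arrays, Pax6 on 4 and Pcsk1 on 1. Of 8 genes of fibroblasts, leukocytes, endothelium and other gut cells, Col1a1 lay above the limit on 6 arrays, with deposited intensities of 17.2 to 42.0, Pecam1 on 1 and the other 6 on 0.

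Among promoters, those of 4 members were read to show how unlike the upstream sequences of these genes are. They are the 250 bases before the RefSeq start (GRCm38.p6), 5′ to 3′ on the strand of the gene, for Cox6a1 and the isoform pair Cox7a1 and Cox7a2, which are described again with complex IV, and for Atp5l, a small subunit of complex V. Capitals mark the core of the motif of NRF1 (GCATGCG, which can match both strands at once as a longer run), the factor named for its role at respiratory genes, the motif of ETS factors (CCGGAAG, or CTTCCGG on the other strand) and the E-box (CACGTG), the letters read by clock factors such as BMAL1. The windows lie at chr5:115348959-115349208, minus strand (Cox6a1), chr7:30183921-30184170, plus strand (Cox7a1), chr9:79759854-79760103, minus strand (Cox7a2) and chr9:44920743-44920992, minus strand (Atp5l).
Cox6a1: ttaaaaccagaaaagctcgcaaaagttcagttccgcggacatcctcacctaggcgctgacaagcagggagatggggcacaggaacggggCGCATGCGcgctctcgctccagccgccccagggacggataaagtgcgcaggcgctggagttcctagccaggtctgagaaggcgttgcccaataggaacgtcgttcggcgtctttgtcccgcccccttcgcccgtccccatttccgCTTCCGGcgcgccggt
Cox7a1: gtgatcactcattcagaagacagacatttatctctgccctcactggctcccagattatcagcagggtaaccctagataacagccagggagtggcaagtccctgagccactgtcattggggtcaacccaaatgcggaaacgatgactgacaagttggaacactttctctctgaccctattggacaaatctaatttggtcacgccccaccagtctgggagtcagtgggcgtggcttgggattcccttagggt
Cox7a2: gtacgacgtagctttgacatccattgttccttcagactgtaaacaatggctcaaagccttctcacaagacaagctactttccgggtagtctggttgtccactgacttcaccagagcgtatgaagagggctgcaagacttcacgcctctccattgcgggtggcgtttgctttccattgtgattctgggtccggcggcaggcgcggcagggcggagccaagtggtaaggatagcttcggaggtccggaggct
Atp5l: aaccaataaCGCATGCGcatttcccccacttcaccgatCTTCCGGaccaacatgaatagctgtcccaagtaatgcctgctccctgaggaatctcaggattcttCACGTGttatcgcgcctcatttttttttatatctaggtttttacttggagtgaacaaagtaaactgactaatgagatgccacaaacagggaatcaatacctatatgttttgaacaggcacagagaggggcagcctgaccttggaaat
The window of Cox6a1 holds the NRF1 core and an ETS motif and 26 CpG dinucleotides, and that of Atp5l the NRF1 core, an ETS motif and an E-box with 7 CpG. Those of Cox7a1 (4 CpG) and Cox7a2 (14 CpG) hold none of the motifs searched. None of the marked motifs overlaps another.

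Over the subunit genes, 60 of 74 had a promoter window, 65 windows in all, and both strands were searched. These windows are listed with coordinates that run past the start (for Cox7a1, chr7:30183921-30184220). Whether motifs and CpG were counted only in the 250 bases before the start is not given. The NRF1 core was present in 9 windows (13.8%), against 3.02% of all 32851 windows in the table. The ETS motif was present in 12 (18.5%, against 6.91% of all windows), and the E-box in 6 (9.23%, against 6.02%). A YY1 motif (AAGATGG), which can share letters with the ETS motif, was in 1 (1.54%, against 4.49%). The median number of CpG dinucleotides was 14 in the windows of subunit genes and 6 in all windows. These are matches of letters, not sites shown to be bound. The genes with an NRF1 core were Atp5g2, Atp5j, Atp5k, Atp5l, Cox6a1, Ndufa11, Ndufa6, Ndufa8 and Sdhb, whose log2 changes (4 h minus 16 h) lay between -0.20 (Sdhb) and 0.12 (Atp5l). Those with an E-box were Atp5g3, Atp5f1, Atp5l, Ndufa7 and Ndufv1. Their changes were 0.086, 0.022, 0.12, -0.22 and 0.047, and no member was called at the adjusted threshold.

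Transcripts of the subunits were above the noise of the arrays for most genes. With each gene given by its brightest probe, 65 of 74 subunit genes exceeded the noise limit on each of the 6 arrays, and the remaining 9 did so on fewer than 3. In complex V all 14 genes were above it. In complex I it was 33 of 34, in complex II 3 of 4, in complex III 5 of 7 and in complex IV 10 of 15. The mean deposited intensity of the genes above the limit ran from 120 to 22096 in complex I, from 347 to 2141 in complex II, from 211 to 12228 in complex III, from 50.6 to 13544 in complex IV and from 201 to 26351 in complex V. Probes differ in how well they bind their target, so these ranges overlap without giving an order of the complexes. The dim genes included catalytic or core subunits, a small accessory subunit and tissue-specific isoforms. The core subunits were Ndufs1, an iron-sulfur subunit of complex I, Sdha, the flavoprotein of complex II, and Uqcrfs1, the Rieske protein of complex III. The accessory one was Uqcrq of complex III, and the isoforms were Cox4i2, Cox6b2, Cox7b2, Cox8b and Cox8c. A dim probe does not show that the transcript was missing, since Atp5j, Cox5b, Ndufb2, Ndufb4, Sdhb and Sdhc, 6 genes in all, each had at least 1 probe above the limit on all arrays and another above it on fewer than 3. Cox8a, Ndufa4l2 and Atp5g1 were not analysed here.

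No member differed between the time points at the adjusted threshold. By limma with Benjamini-Hochberg adjustment over all 45281 probes, 0 of the 117 member probes had an adjusted p under 0.05, where 4 probes of the whole array did (0.00883%). At an unadjusted p under 0.05, 1 member probe was higher and 3 were lower at 4 h, against 2.82% and 2.6% of all probes. All 4 h arrays lay above all 16 h arrays for 1 member probe and below them for 4, against 5.54% and 5.38% of all probes. The member shares therefore lay near or below those of the array. The precision at the subunits set bounds on the normalized changes, each relative to the other probes of an array. The 95% interval of the change lay inside ±1 (log2) for all 65 genes above the noise limit, and inside ±0.5 for 55 of them, with a median half-width of 0.25. At the level of probes the interval lay inside ±0.5 for 82 of the 99 members whose mean was above the limit (82.8%, against 86.4% of all such probes).

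The medians of the complexes lay between -0.10 and 0.016, and each changed sign under at least 1 alternative processing. That of complex II did so only with median scaling (0.23) and without normalization (0.32). In those settings the median change of all probes above the noise limit was 0.27 and 0.36. After quantile normalization, the median log2 change was -0.043 in complex I, -0.10 in complex II, 0.016 in complex III, -0.014 in complex IV and -0.042 in complex V, each over every gene of the complex. Leaving out dim genes, the medians were -0.049, -0.13, -0.048, -0.019 and -0.042. No test was made between complexes, since genes of a complex are not replicates. Of the 65 subunit genes above the noise limit, 44 were lower and 21 higher at 4 h, or 67.7% lower, against 48.5% of all such probes, and the median change was -0.048, against 0.0051. In the brightest class of probes above the limit (3424 probes with a mean of at least 671 units), where 54 subunit genes lie, 68.5% of these genes and 50.6% of the probes were lower. Without the array of 4 h replicate 3 the medians of complexes I to V became 0.012, -0.053, 0.043, 0.028 and 0.055, so the lower values of complexes I and V turned direction without it. The median of complex IV also turned without 16 h replicate 1 (0.0049) or 16 h replicate 3 (0.016), with array weights (0.0096), with the probes of a gene averaged (0.0033) or all counted (0.02), and with Ndufa4 counted in it (0.0058).

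**Figure D1:**
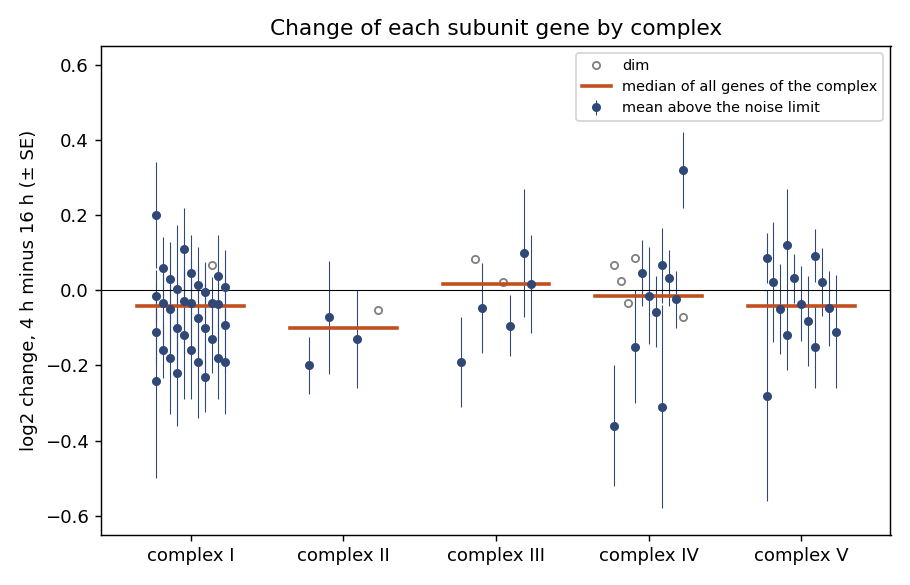
Log2 change (4 h minus 16 h, vertical axis) of each subunit gene, by complex, with bars of ± 1 SE; filled points have a mean above the noise limit, open points are dim genes and orange lines are the medians over all genes of a complex. The medians lie between -0.10 and 0.016, and the highest and lowest genes are Cox6a2 (0.32) and Cox7a1 (-0.36), both in complex IV.

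The deposited intensities, before normalization, were higher at 4 h for the members too. The median log2 ratio of 4 h to 16 h was 0.40 for the subunit genes above the noise limit, 0.55 for all probes above it and 0.49 for the brightest class. By complex the ratio was 0.41 (I), 0.37 (II), 0.41 (III), 0.39 (IV) and 0.39 (V). Whether these ratios reflect RNA levels or only brighter arrays at 4 h cannot be told apart. Scaling each array to its median gave 2 member probes called higher and 0 lower (1.71%, against 1.84% of all probes called higher), and no normalization gave 8 and 0 (6.84%, against 5.1%). Under these settings the median change of all probes above the noise limit was 0.27 and 0.36, and that of the member probes 0.30 and 0.39, so that the directions given here are relative to the other probes of an array. The shares of probes called rest on unlike bases. A mean above the noise limit was found for 99 of the 117 member probes and for 17119 of all 45281 probes.

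The array of 4 h replicate 3 stood below the others on these genes. Of the 65 subunit genes, 42 (64.6%) had their lowest 4 h value there, against 33.7% of all probes above the noise limit and 38.6% of the brightest class. The median gap between that array and the mean of the other 4 h arrays was -0.19 (log2) for subunit genes, 0.014 for all probes and 0.013 for the brightest class. By complex it was -0.19 (I), -0.34 (II), -0.21 (III), -0.26 (IV) and -0.13 (V), so it ran the same way in each. Other lists read low on that array too. Their median deviations from the 6-array mean were -0.15 (genes of mitochondrial DNA), -0.14 (other parts of the chain) and -0.11 (assembly factors). The subunits were at -0.13, regulators of mitochondrial genes at -0.022, the TCA cycle at 0.07 and L-cell markers at 0.21. The genes of mitochondrial DNA were low on 16 h replicate 1 as well, at -0.16. Within complex I the median gap was 0.11 over 6 core subunits, among them carriers of the flavin and the iron-sulfur clusters, and -0.21 over the 27 accessory subunits around them. The array was below the mean of the other 4 h arrays for 2 of the 6 (Ndufs8 and Ndufv2) and for 23 of the 27, and the difference between these groups of genes was not tested. The array with the highest signal of the 18S ribosomal RNA probes was also 4 h replicate 3 (log2 10.57, against 6.91 to 9.24 on the other 5). The part of ribosomal signal in the gap was not tested. The arrays were also split by their 18S and Actb probes into a high group (4 h replicates 1 and 3 and 16 h replicate 1) and a low group (the other 3). With this split as a block, the median change of the member probes above the noise limit was -0.043, against -0.049 without it. Some values shrank: complex II went from -0.10 to -0.043, complex V from -0.042 to -0.019, Cox7b from -0.31 to -0.11, Atp5c1 from -0.15 to -0.069 and Ndufa5 from 0.11 to 0.018. Others grew, among them Cox5a (0.067 to 0.12), Ndufv1 (0.047 to 0.092) and Cox6a1 (-0.024 to -0.054). Complex III turned from 0.016 to -0.044.

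**Figure D2:**
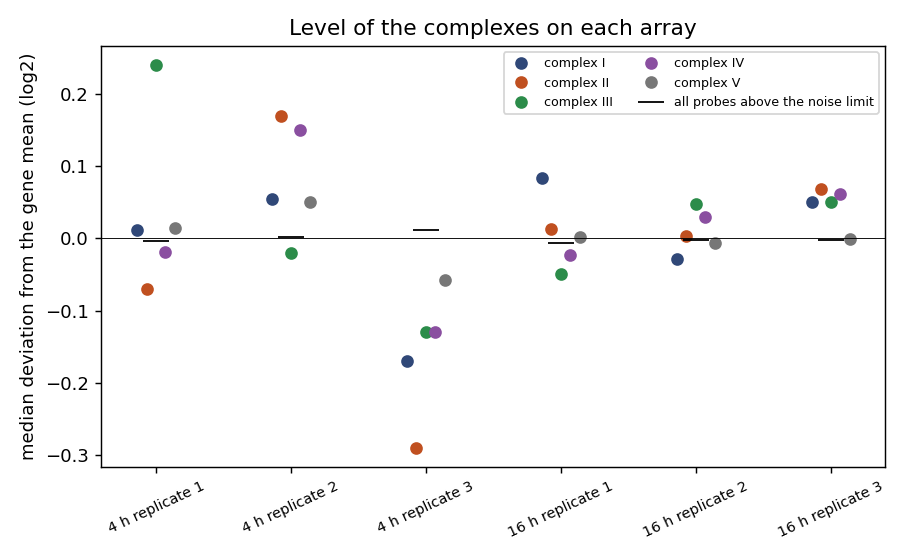
Median deviation of the genes of each complex (coloured points) and of all probes above the noise limit (black bars) from their 6-array means, in log2, for each array. On 4 h replicate 3 every complex lies below 0, from -0.058 in complex V to -0.29 in complex II, while the bar of all probes is at 0.011.

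Atp5e, the epsilon subunit of ATP synthase, had the widest gap. Its normalized log2 levels were 9.69, 9.86 and 8.57 on the 4 h arrays, against 9.57, 9.54 and 9.85 on those of 16 h. The array of 4 h replicate 3 was thus lower than all 5 others, and the change was -0.28 (SE 0.28; limma adjusted p = 0.962). Cox7b, a small subunit of complex IV, had levels of 9.08, 9.46 and 8.27 on the 4 h arrays, against 8.97, 9.16 and 9.60 on those of 16 h. Ndufb4, an accessory subunit in the membrane arm of complex I, had 8.06, 8.31 and 7.24 on the 4 h arrays, against 7.89, 7.91 and 8.53 on those of 16 h. For each of these the gap was wide (from -1.20 for Atp5e to -0.94 for Ndufb4), and the values on the remaining arrays of the time points overlapped. Ndufb9 (-0.69), Uqcrb (-0.68), Ndufb2 (-0.62), Cox7a1 (-0.61) and Sdhd (-0.59) had the next gaps, and these genes were picked for their gap after the values were seen.

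**Figure D3:**
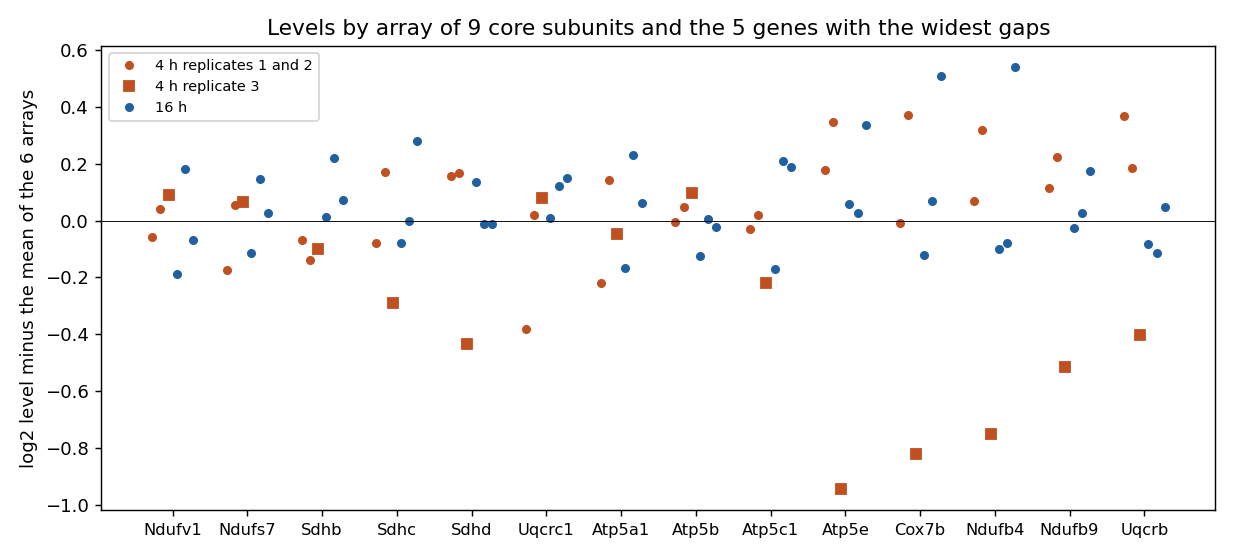
Normalized log2 level on each array, centred on the mean of the 6 arrays, for 9 core subunits named by rule (Ndufv1 to Atp5c1) and the 5 genes with the widest gaps (Atp5e to Uqcrb). The 4 h replicate 3 square is the lowest of the 6 arrays for 3 of the 9 (Sdhc, Sdhd and Atp5c1) and for all 5 genes chosen by their gap.

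In complex I, Ndufa4 is a subunit by its name and is also described in complex IV. Its deposited intensities were 29819, 22919 and 21637 on the 4 h arrays, against 22662, 17116 and 18421 on those of 16 h. The normalized change was 0.037 (SE 0.11, 95% interval -0.20 to 0.28), with overlapping time points. Ndufv1, the core subunit that takes electrons from NADH, had a change of 0.047 (SE 0.10), and Ndufs7, an iron-sulfur subunit, of -0.037 (SE 0.094). The genes with the smallest p in each direction were Ndufc2 and Ndufa5, at 0.20 (SE 0.14, and 0.07 without 16 h replicate 2) and 0.11 (SE 0.11), and Ndufa3 and Ndufv2. Ndufa3, an accessory subunit, had normalized levels of 12.29, 12.28 and 12.10 on the 4 h arrays, against 12.50, 12.28 and 12.58 on those of 16 h. The change was -0.23 (SE 0.095; limma adjusted p = 0.889), with the lowest 16 h array within the 4 h range. Ndufv2, an iron-sulfur core subunit, had levels of 12.59, 12.47 and 12.39 on the 4 h arrays, against 12.64, 12.59 and 12.68 on those of 16 h. These did not overlap, although 16 h replicate 2 and 4 h replicate 1 both read 12.59 when rounded, and the change was -0.16 (SE 0.074; limma adjusted p = 0.919).

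Complex II has 4 subunits, of which Sdha carries the flavin and Sdhb the iron-sulfur clusters. Sdhb had normalized levels of 10.87, 10.80 and 10.84 on the 4 h arrays, against 10.95, 11.16 and 11.01 on those of 16 h. All 4 h arrays were below all 16 h arrays, and the change was -0.20 (SE 0.076; limma adjusted p = 0.835). Its other probe above the noise limit on all arrays gave -0.12 (SE 0.076), with overlap, and the average over its probes, 1 of them dim, was -0.051. Sdhc and Sdhd, which anchor the complex in the membrane, had changes of -0.13 (SE 0.13) and -0.072 (SE 0.15), with overlapping time points, and that of Sdhc was -0.024 without 4 h replicate 3. Both Sdha probes were dim, so no change is given for it.

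In complex III, Uqcrc1, a core protein, had a change of -0.19 (SE 0.12) and Uqcr of -0.094 (SE 0.081). Uqcrb and Uqcrh were at 0.10 (SE 0.17) and 0.016 (SE 0.13). The levels of Uqcrc1 were 11.03, 11.43 and 11.49 on the 4 h arrays, against 11.42, 11.53 and 11.56 on those of 16 h. Replicate 1 was the low array at 4 h, the other 4 h levels lay within the range of 16 h, and the change without that array was -0.044. The time points overlapped for every member gene of the complex. Cyc1, cytochrome c1, which the symbol rule leaves out, was lower on every 4 h array by a small amount (-0.076, SE 0.067; limma adjusted p = 0.959).

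Complex IV holds the isoform pairs. Cox4i1, its regulatory subunit in most tissues, had deposited intensities of 14077, 12396 and 9417 on the 4 h arrays, against 10623, 7837 and 8797 on those of 16 h. After normalization its change was -0.014 (SE 0.13, 95% interval -0.31 to 0.29). Cox4i2, the isoform known from lung and low oxygen, lay at or below 3.0 on every array. Cox6a1 (-0.024, SE 0.076) and Cox6b1 (0.046, SE 0.088), the widely expressed forms, had changes smaller than their SE, as did Cox5a (0.067, SE 0.10) and Cox7a2l (0.062, SE 0.13), a factor of respiratory supercomplexes, and the testis forms Cox6b2 and Cox7b2 and the further forms Cox8b and Cox8c lay above the limit on 0 arrays.

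Cox6a2 and Cox7a1 are known as heart and muscle forms, and both were above the noise limit on all arrays. Cox6a2 had deposited intensities of 93.3, 68.1 and 55.0 on the 4 h arrays, against 38.3, 28.9 and 20.0 on those of 16 h. The time points did not overlap, by a small margin after normalization (lowest 4 h level 6.74, highest 16 h level 6.73), and the change was 0.32 (SE 0.10; limma adjusted p = 0.719). Its size depended on the background step, since it was 0.47 with an offset of 16 and 0.76 without background correction, with limma adjusted p of 0.861 and 0.844. It passed the threshold without between-array normalization (0.59, limma adjusted p = 0.0466), where 5.1% of all probes were called higher, and not with median scaling (0.50, limma adjusted p = 0.0651). It was the only member probe higher at 4 h at an unadjusted p under 0.05. Cox7a1 had deposited intensities of 2180, 2046 and 1428 on the 4 h arrays, against 1770, 1612 and 1674 on those of 16 h. The normalized change was -0.36 (SE 0.16; limma adjusted p = 0.919), with overlap, and -0.16 without 4 h replicate 3. Cox7a2, the form found in most tissues, had intensities of 1270, 1028 and 805.1 on the 4 h arrays, against 765.9, 840.0 and 766.3 on those of 16 h and a change of -0.15 (SE 0.15). Both Cox7a forms were thus lowest of the 4 h arrays on replicate 3. Levels of different probes are not compared, so no share of an isoform is read from these values. Each of Cox6a2 and Cox7a1 rests on 1 probe, whose sequence was not examined here.

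**Figure D4:**
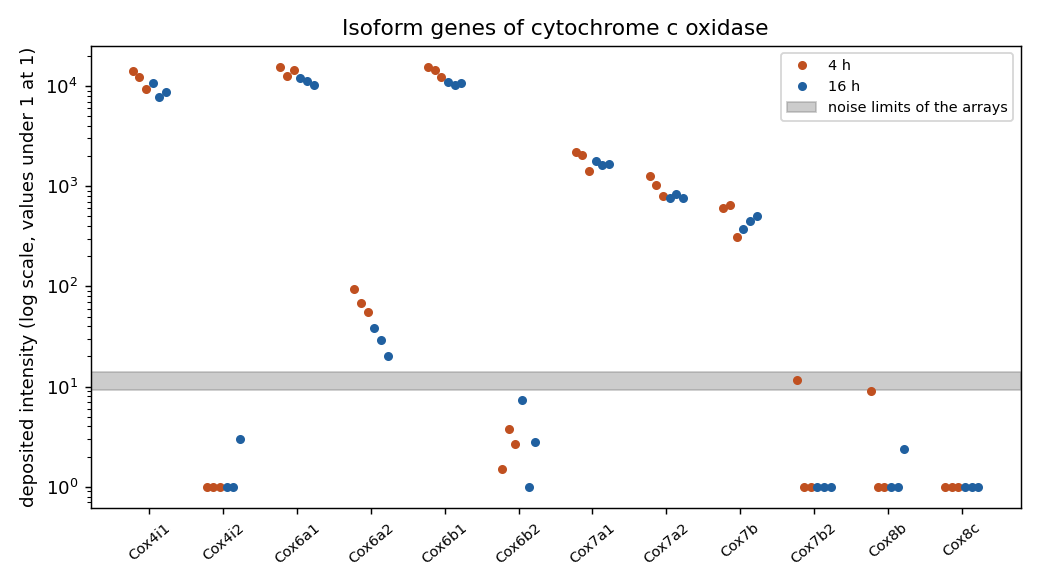
Deposited intensity (log axis, values under 1 drawn at 1) of isoform genes of cytochrome c oxidase on the 4 h arrays (orange) and 16 h arrays (blue), with the noise limits of the arrays in grey. Cox6a2 and Cox7a1 lie above the limits on all arrays, while Cox4i2, Cox6b2 and Cox8c lie below them, and heights are not compared between genes.

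In complex V, Atp5b, the catalytic beta subunit, had deposited intensities of 31136, 28486 and 29789 on the 4 h arrays, against 21476, 23607 and 23613 on those of 16 h. Its normalized change was 0.092 (SE 0.07, 95% interval -0.066 to 0.25), and the levels of the time points overlapped. Atp5a1, the alpha subunit, was at -0.081 (SE 0.12) and Atp5c1, the rotor's gamma subunit, at -0.15 (SE 0.11). Of the genes for the c-ring, Atp5g3 was at 0.086 (SE 0.067) and Atp5g2 at -0.048 (SE 0.10). Atp5h, of the peripheral stalk, was at -0.12 (SE 0.091), and at -0.022 without 4 h replicate 3. Among the genes that carry a member's symbol without being a subunit, Atp5sl had normalized levels of 8.89, 9.01 and 9.01 on the 4 h arrays, against 9.25, 9.39 and 9.21 on those of 16 h. All 4 h arrays were lower, with a change of -0.31 (SE 0.076; limma adjusted p = 0.498).

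The changes of probes of 1 gene differed by amounts like the changes themselves. In 23 genes with 2 or more probes that exceeded the noise limit on every array, the median difference between the changes of their probes was 0.074 (log2). The widest was 0.34, for Ndufc2, whose probes were at 0.20 and -0.14 and averaged 0.034, and none was over 0.5. Of the 99 member probes with a mean above the limit, the 95% interval left ±1 for 1, a probe of Atp5o (-1.07 to 0.48).

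The other genes of the pathway were described in the same way, by list. Of 44 assembly factors, 40 had a probe other than a member's (Ndufaf2 is the member Ndufa12l). The median change of those above the noise limit was -0.0042, with 18 of them higher and 18 lower at 4 h. Acad9 and Sdhaf1, which help to assemble complexes I and II, were higher on every 4 h array (0.27, SE 0.077, and 0.27, SE 0.084), and Ttc19, a complex III factor, was lower on every 4 h array (-0.19, SE 0.063). By limma the adjusted p was 0.648, 0.731 and 0.774. Of 13 genes of mitochondrial DNA, 8 had a probe, with a median change of -0.084 among the 7 above the limit. Among them, mt-Nd5 had deposited intensities of 85.5, 67.9 and 56.8 on the 4 h arrays, against 10.3, 28.7 and 19.5 on those of 16 h, with no overlap and a change of 0.49 (SE 0.12; limma adjusted p = 0.487), while mt-Nd4l and mt-Cytb were at 0.15 and 0.044 and mt-Nd1, mt-Nd4, mt-Co2 and mt-Atp6 at -0.12, -0.085, -0.18 and -0.084. Cytochrome c and other parts of the chain (4 genes of 5, the other, Dmac2l, being the member Atp5s) had a median of -0.039. Of 15 regulators of mitochondrial genes, all with a probe, 14 had a mean above the limit, with a median of -0.013, 7 of them higher and 7 lower. Ppargc1a, the coactivator PGC-1 alpha, was above the limit on 0 arrays, and Nrf1 was at 0.086 (SE 0.071). Of 12 genes of the TCA cycle, 11 had a mean above the limit, with a median of 0.03, 7 of them higher and 4 lower. Ogdh had the lowest change, at -0.57 (SE 0.19, limma adjusted p = 0.794). No gene of these lists was called at the adjusted threshold.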

How the data were processed

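RNA of 3 samples at 4 h and 3 at 16 h was measured on mouse Illumina arrays. The deposited values are probe intensities on a linear scale, background-subtracted, since about 31.2% to 34.0% of each array lay below 0, and not normalized between arrays; scanner software and detection p-values are not given in the sources used here. Their number (6) sets the precision. In R 4.3.3 with limma 3.58.1, they were background corrected (normexp, offset 50), quantile normalized, log2 transformed, fitted with time point as the only term (lmFit, eBayes), and adjusted by Benjamini-Hochberg over 45281 probes (threshold 0.05). The offset shrinks the changes of dim probes. The procedure was tested on simulated data, but the outcome is not reported here and no value given rests on it.

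Members were found by symbol; 73 genes matched RefSeq symbols and 6 a synonym. A gene is given by its brightest probe. The members and lists were chosen with earlier results of these data known. Named genes were the markers Ndufa4, Cox4i1 and Atp5b, the 2 smallest p in each direction per complex, isoform groups, core subunits (1 of which is not reported here) and discordant probes; others were chosen after their values were seen, as was Ndufa12l as a non-subunit. Alternatives covered background correction, normalization, filters, variance, blocks, probe choice and leaving out each array. Promoter motifs were likewise chosen with the data known; a longer form of the NRF1 motif was searched before the core given here and matched fewer windows, among subunit genes and overall.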

Additional observations from a re-analysis of the deposited data

How the results depend on the processing

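Median scaling called 2 member probes higher, and complexes I to V had medians of 0.30, 0.23, 0.19, 0.22 and 0.29; without normalization 8 were called, with 0.39, 0.32, 0.28, 0.31 and 0.38. All other alternatives called 0 member probes, the replicate block included, in which limma gave 2 higher and 3 lower probes with unadjusted p below 0.05. Samples with the same replicate number showed no consistent shared deviation, with correlations of deviations of 0.24, 0.17 and -0.47. Whether they were paired is not stated, so the block is given only here.

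Linear scaling gave complex I -0.12, III -0.10, IV -0.13 and V -0.15. The median of complex III was -0.049 without background correction, -0.048 under either filter on dim probes and -0.044 with the 18S block, and that of complex II -0.043 with the 18S block and -0.041 with probes averaged. With single arrays left out, complex I ran from -0.13 to 0.012, III from -0.055 to 0.043 and V from -0.086 to 0.055.

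Among 29 named genes, 453 of 530 values kept direction and side of the threshold, 73 turned direction and 4 passed the threshold newly in the same direction (without normalization Atp5b 0.38, Cox6a2 0.59 and Cox5a 0.49, and with median scaling Cox5a 0.41). Of the values that turned, 2 also passed it, those of Atp5g2 with median scaling and without normalization. In these settings the median change of all probes above the noise limit was 0.27 and 0.36. A turned sign there need not mean a turn relative to the other probes of an array. Values that turned with median scaling, then without normalization, were Cox4i1 0.30 and 0.39, Ndufa3 0.12 and 0.21, Ndufv2 0.21 and 0.30, Sdhb 0.20 and 0.29, Sdhc 0.27 and 0.36, Sdhd 0.31 and 0.40, Uqcrc1 0.18 and 0.27, Uqcr 0.19 and 0.28, Cox6a1 0.27 and 0.36, Cox7a1 0.048 and 0.14, Cox7a2 0.26 and 0.35, Cox7b 0.089 and 0.18, Atp5c1 0.16 and 0.24, Atp5h 0.24 and 0.33, Atp5g2 0.35 and 0.44, Atp5a1 0.32 and 0.41, and Ndufs7 0.31 and 0.40. With linear scaling they were Ndufa4 -0.18, Atp5b -0.15, Ndufa5 -0.017, Uqcrh -0.10, Cox5a -0.037, Atp5g3 -0.14, Cox6b1 -0.13 and Ndufv1 -0.03. With the 18S block they were Ndufa4 -0.013, Uqcrh -0.055, Cox7a2l -0.03, Ndufs7 0.014 and Atp5a1 0.015. Cyclic loess turned Ndufa4 (-0.031) and Cox6b1 (-0.0046), array weights Cox4i1 (0.0096), and averaging probes Cox6a1 (0.045) and Cox6b1 (-0.018).

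With single arrays left out, the changes ran from -0.19 to 0.013 for Atp5a1, -0.12 to 0.032 for Atp5g2, -0.12 to 0.13 for Cox4i1, -0.083 to 0.021 for Cox6a1, -0.039 to 0.10 for Cox6b1, -0.26 to 0.043 for Cox7a2, -0.058 to 0.21 for Cox7a2l, -0.56 to 0.023 for Cox7b, -0.036 to 0.14 for Ndufa4, -0.11 to 0.036 for Ndufs7, -0.033 to 0.15 for Ndufv1, -0.17 to 0.12 for Sdhd, -0.055 to 0.33 for Uqcrb and -0.10 to 0.11 for Uqcrh. Without turning, Cox5a ran from 0.0026 to 0.17, Uqcr from -0.16 to -0.032, Atp5b from 0.053 to 0.12, Ndufc2 from 0.07 to 0.32, Ndufa5 from 0.033 to 0.20, Atp5c1 from -0.28 to -0.078 and Atp5h from -0.18 to -0.022. The causes of these shifts were not tested. Slide and scan are not given, so time point and array batch cannot be told apart, and signal over background limits the dim genes.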
